A study of Mus musculus with 9 samples.

Results

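Integrins, cadherins and protocadherins are the receptors with which cells hold on to the surrounding matrix and to each other, and their mRNAs were followed here in fibroblasts that express single isoforms of the transcription factor C/EBPβ. The members were chosen by symbol alone: every integrin alpha chain (Itga), integrin beta chain (Itgb), numbered cadherin (Cdh) and protocadherin (Pcdh) in the count table, 120 of its 23337 genes. They were 26 integrin chains, 23 cadherins, 12 non-clustered protocadherins and 59 clustered protocadherins. Of the clustered ones, 15 belonged to the Pcdha, 22 to the Pcdhb and 22 to the Pcdhg cluster.

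RNA was sequenced from immortalised mouse embryonic fibroblasts (MEFs) of a mixed C57BL/6 x 129 background in which Cebpb, the gene of C/EBPβ, is knocked out. There were 3 groups of 3 libraries each: EV with the empty vector, LAP with the long, transactivating isoform of C/EBPβ, and LIP with the truncated isoform, which keeps the DNA-binding part and lacks most of the transactivating part. The cells of every group, controls included, are described as lacking their own C/EBPβ, and LAP and LIP were the rat proteins, expressed from a plasmid (pcDNA3 or pSV2Zeo) in cells kept under Zeocin. The sources used here do not state the age of the donor embryos, the time between transfection and harvest, whether a line is 1 clone or a pool, or whether the libraries of a group came from separate cultures, so p-values measure the spread between these libraries only, which may be technical.

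An integrin is a dimer of an alpha and a beta chain, and the pair decides which ligand is bound: collagens, laminins, proteins with the RGD tripeptide such as fibronectin and vitronectin, or counter-receptors on other cells. Classical cadherins bind the same cadherin on the next cell and tie it to actin through catenins, and fibroblasts are known for N-cadherin (Cdh2) and cadherin-11 (Cdh11) in place of the epithelial E-cadherin (Cdh1). The clustered protocadherins are encoded by arrays of first exons, each with its own promoter, and in Pcdha and Pcdhg the first exons are spliced to exons common to the whole cluster. They are best known from neurons, where they mark single cells, and non-clustered protocadherins are separate genes with diverse roles in adhesion and cell sorting.

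The reads assigned to genes numbered 24839139 to 33522082 per library, and 3 counts, the detection floor used here, stood for 0.0895 to 0.121 CPM, counts put on the scale of a common library size, under scaling by total counts, with counting error alone considered. Counts on Cebpb were 25.2 to 33.3 CPM in all 9 libraries. The 3 EV libraries, which carry no rat insert, held 684 to 1041 of these counts each, so reads were assigned to the mouse gene without a rat plasmid. Which part of it they cover was not analysed here, nor whether reads of the rat plasmids add to it in LAP and LIP, and this gene checks neither the knockout nor the labels. LIP replicate 2 stood apart: its members summed to 2946 CPM, against 4199 to 6036 CPM in the other 8 libraries. Of the 54 members whose counts averaged at least 20 over all libraries, 25 were lowest in LIP replicate 2 and 16 in LIP replicate 3, where 22.8% and 18.4% of all 11535 such genes were lowest. LAP replicate 1 stood apart on the other side, with the highest value of 26 of the 54 members and of 8.67% of all such genes, and its members had the highest sum, 6036 CPM. Of 10 fibroblast markers, at least 8 were above the floor in every library, and none was at 0 in all of them. Their summed level ranged from 33340 to 38000 CPM in EV, from 24580 to 41320 CPM in LAP and from 14530 to 28770 CPM in LIP, again lowest in LIP replicate 2. In LIP against EV, 9 of the 9 fibroblast markers read to the same depth had a log2 fold change below 0, with a median of -1.08, and none passed the test. Fewer cells of a type and less RNA per cell cannot be told apart in such bulk samples, and the part that the marker shift plays in the results on adhesion genes was not tested. Markers of endothelium, leukocytes and skeletal muscle stayed at or below a summed 3.36 CPM in every library, with 2 of 5, 3 of 4 and 1 of 5 of them at 0 in all. The 6 epithelial and 4 neural markers summed to 483 to 1001 CPM and 56.5 to 99.4 CPM, with overlap between the groups. Of the 3 epithelial markers of that depth, the keratins Krt8 and Krt18 lay higher in every LIP than in any EV library, with log2 fold changes of 0.48 and 0.99 (edgeR, unadjusted p = 0.0345 and 0.0161, adjusted p = 0.411 and 0.314), and Krt14 was at -0.56 (adjusted p = 0.487). Their part in the results was not tested either.

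Levels between genes were compared per length as RPKM, that is CPM per kilobase of exon that no other gene shares. Among integrins the fibroblasts had a small set of abundant chains and many rare ones. Itgb1, the beta chain common to the collagen, laminin and fibronectin receptors, stood first with 520.5 RPKM ± 71.4 in EV, 498.6 ± 88.6 in LAP and 393 ± 158 in LIP (SD, n = 3 each). It held 97.0% to 98.1% of the reads on beta chains in the 9 libraries. Itga5, the fibronectin receptor chain, followed with 102 RPKM ± 6.35 in EV, Itga3, a laminin receptor chain, with 86.3 ± 22.1 and Itgav, the chain of the vitronectin receptors, with 65.8 ± 5.25. The levels of Itga5 and Itga3 in EV differed by less than the SD of Itga3, whereas that of Itgb1 lay far above them. Itga7, Itga6 and Itga11 had 18.9 ± 8.31, 17.02 ± 3.09 and 9.09 ± 3.47 RPKM in EV, in which Itga7 and Itga6 did not differ beyond their spread. Lowest among the chains with a mean of at least 20 counts over all libraries stood Itga9 and Itga4, at 0.129 ± 0.0361 and 0.117 ± 0.0194 RPKM, again within each other's spread. Itgal and Itgam, alpha chains of leukocytes, had 0 counts in every library, which allows at most 0.121 CPM, and Itgad stayed at or under 3 counts.

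**Figure D1:**
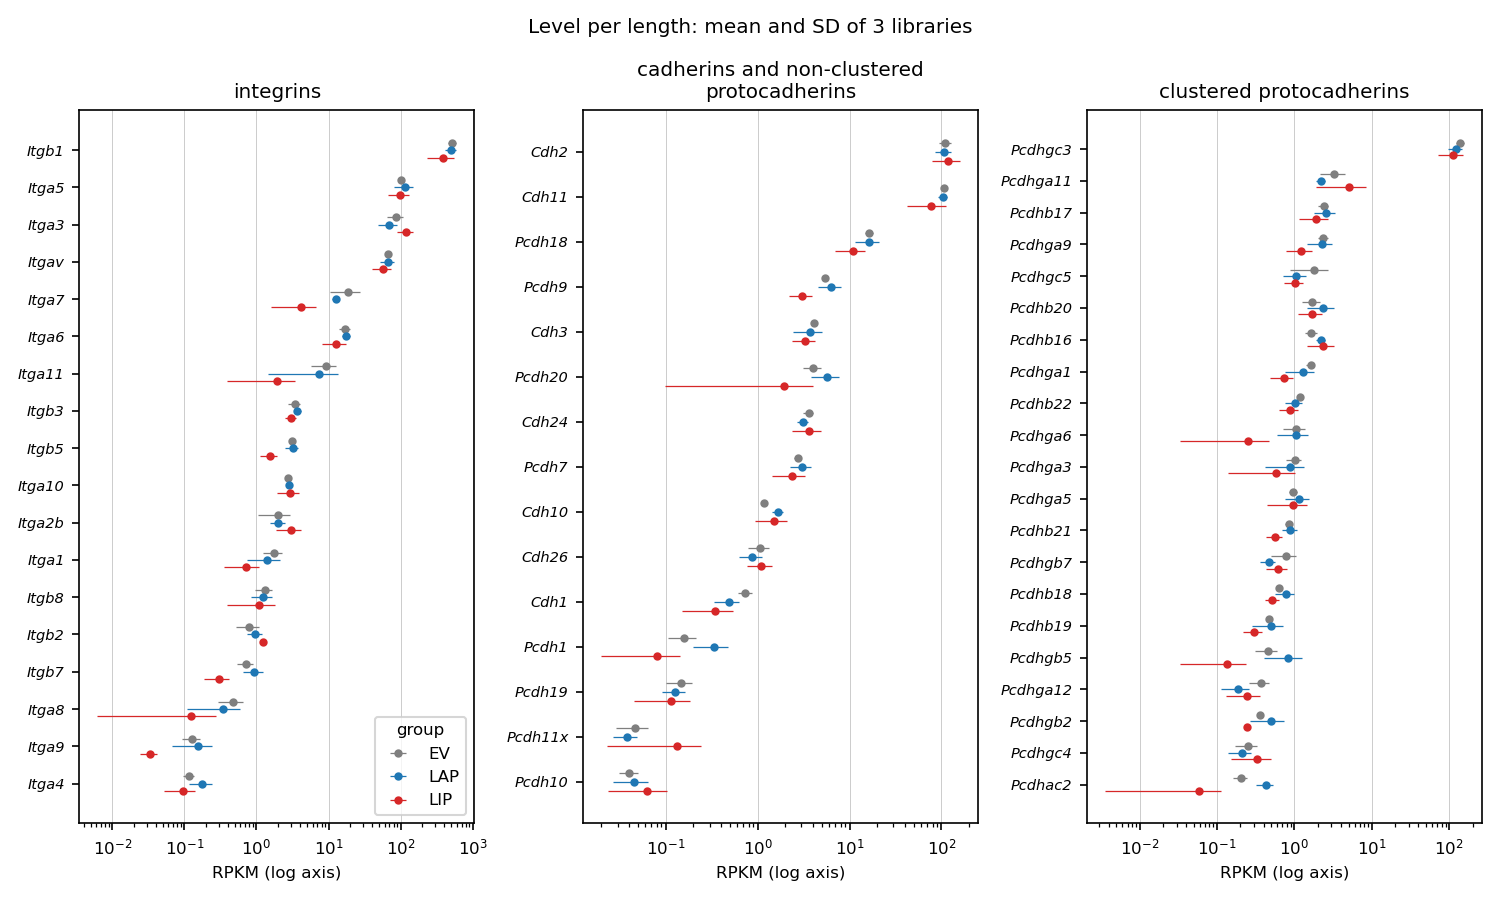
Mean RPKM per group (points, log axis) with the SD of 3 libraries (bars, cut short where they would reach 0) for members with a mean of at least 20 counts over all libraries; grey is EV, blue LAP and red LIP. Itgb1, Cdh2, Cdh11 and Pcdhgc3 lead their families in every group, and the red points of Itga7, Itga11, Itga9 and Pcdhga6 lie left of the grey ones.

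Of the cadherins, Cdh2 had 111 RPKM ± 15.5 and Cdh11 105 ± 7.19 in EV, which is a difference within their spread. Together these fibroblast cadherins held 93.8% to 97.1% of the reads on cadherins, with the lowest share in LIP replicate 2. Cdh3 (P-cadherin) and Cdh24 followed at 4.08 ± 0.238 and 3.58 ± 0.423 RPKM, and Cdh1 (E-cadherin) had 0.736 ± 0.125. The non-clustered protocadherins were led by Pcdh18 with 16.4 RPKM ± 1.57 in EV, Pcdh9 with 5.39 ± 0.108 and Pcdh20 with 4.03 ± 0.920. Of all 120 members, 61 were above 3 counts in each library, 30 were at or under 3 counts in every library, and 11 of these 30 were at 0 throughout.

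The clustered protocadherins were read unevenly along the array. Of the 15 Pcdha genes, 14 were at or under 3 counts in every library, and Pcdhac2, the last of its first exons, held 86.7% to 100% of its reads in EV and LAP and 90%, 100% and 50% in LIP, from totals of 10, 3 and 4 reads. In Pcdhb, the 7 genes from Pcdhb16 to Pcdhb22 at the end of the cluster held 91.9% to 95.3% of the reads of the 22 genes, a split that was drawn after the values were seen. Pcdhgc3 held 78.1% to 85.2% of the reads on Pcdhg. It reached 140 RPKM ± 15.9 in EV over the 1055 bases that no other gene model covers, and 31.4 RPKM over all 4687 bases of its own model. Reads in exons common to several genes were not counted on any of them. Its neighbour Pcdhgc4 kept 2905 of 5024 bases. The reads were counted on other gene models than the lengths, so 140 RPKM may be too high. Near-identical Pcdhb paralogs can share reads, and their single values are uncertain for that reason. By this measure Pcdhga11 with 3.28 RPKM ± 1.16 and Pcdhb17 with 2.38 ± 0.362 came next in EV, and they did not differ beyond their spread. The length used was 1256 of 4756 bases for Pcdhga11 and all 4660 bases for Pcdhb17, so the place of Pcdhga11 depends on the gene models.

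**Figure D2:**
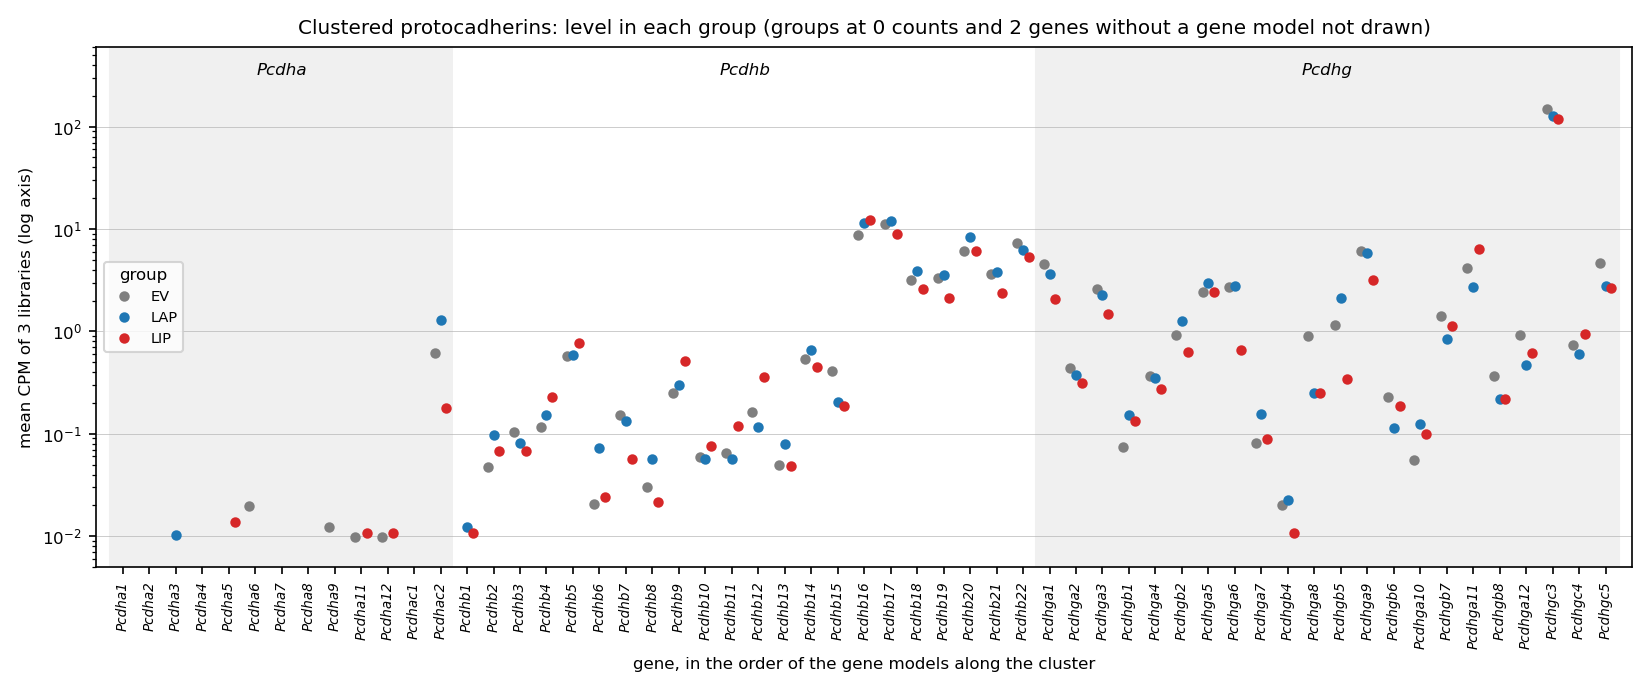
Mean CPM of 3 libraries (log axis) in EV (grey), LAP (blue) and LIP (red) for 57 clustered protocadherins in the order of their gene models. Reads sit on Pcdhac2, on Pcdhb16 to Pcdhb22 and on most Pcdhg genes, and Pcdhgc3 stands above all others.

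The first question was which adhesion receptors differ when LIP is put into cells without C/EBPβ. With LIP against EV, no member passed the threshold of an adjusted p under 0.05 in the quasi-likelihood test of edgeR, adjusted over all genes by Benjamini-Hochberg, in a comparison in which 0.396% of the 18203 genes tested did. Of the 120 members, 106 could be tested and 53 had a mean of at least 20 counts over the 6 libraries. Of these 53, unadjusted p-values under 0.05 were found for 15 lower and 1 higher member, beside 8.78% lower and 5.38% higher among all 11534 genes of that depth. DESeq2's Wald test called 6 members and edgeR's exact test 7, each of them lower, where these tests called 1.76% and 1.65% of all genes. In 16 of the 53 members every LIP library lay below every EV library, and in 1, Itgb2, above, beside 11.1% and 7.83% of all genes of that depth. The log2 fold change was below 0 in 38 of 53 members (47.6% of all genes of that depth), with a median of -0.34 beside 0.02 for all. Leaving out LIP replicate 2 gave 38 as well, with a median of -0.20. The number past the threshold was 9 without LIP replicate 1, beside 246 lower and 36 higher of all 18094 genes tested. It was 4 without LIP replicate 3, beside 230 and 137 of 17826 genes. Without EV replicate 3 it was 2, beside 60 and 9 of 17771 genes, and it was 0 without each of the other libraries. Itga11 was lower in each of these fits with calls.

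Among the collagen receptor chains, Itga11, which with Itgb1 forms the fibroblasts' receptor for fibrillar collagen, had the smallest p of all members. It was read at 65.0, 34.2 and 36.3 CPM in EV replicates 1 to 3 and at 18.0, 7.08 and 3.46 CPM in LIP. All LIP values lay below all EV values, and the LAP values of 69.5, 29.9 and 11.4 CPM overlapped with both groups. The log2 fold change of LIP against EV was -2.25 (SE 0.46, unadjusted p = 0.00034, adjusted p = 0.0645). Itga1, which also binds collagens, had 24.4, 14.7 and 15.99 CPM in EV and 11.2, 3.60 and 7.95 CPM in LIP, without overlap (log2 fold change -1.28, SE 0.35, adjusted p = 0.153). Itga10, the third collagen receptor chain of that depth, was at 0.07 (SE 0.25). The chain sums of the collagen receptors were 58.6 to 98.3 CPM in EV, 31.3 to 103 in LAP and 20.1 to 36.7 in LIP.

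The laminin receptor chains did not move together. Itga7, known as the laminin receptor of muscle, had 94.7, 101 and 38.5 CPM in EV, 58.1, 50.1 and 46.8 CPM in LAP and 21.8, 24.0 and 5.01 CPM in LIP. Every LIP value lay below every value of the other groups, and EV replicate 3 lay below all of LAP. The log2 fold change of LIP against EV was -2.21 (SE 0.48, adjusted p = 0.0773). Itga3, in contrast, was at 525, 516 and 320 CPM in EV and at 793, 495 and 563 CPM in LIP, and Itga6 had a log2 fold change of -0.42 (SE 0.23). The Itga3 groups overlapped, with a log2 fold change of 0.44 (SE 0.24, adjusted p = 0.543).

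Of the chains that bind RGD proteins, Itga8 had 3.08, 3.17 and 1.47 CPM in EV and 1.59, 0.262 and 0.162 CPM in LIP, with 1 LIP library inside the EV range (log2 fold change -1.98, SE 0.64, adjusted p = 0.248). The abundant chains of this class were close to even, with log2 fold changes of -0.05 (SE 0.22) for Itga5 and -0.22 (SE 0.22) for Itgav. Itga2b, the platelet chain, was at 0.60 (SE 0.35). Itga9, a receptor chain for tenascin and osteopontin that is grouped with Itga4, was read at 1.21, 0.812 and 0.732 CPM in EV and at 0.286, 0.164 and 0.258 CPM in LIP, where it rests on 7, 5 and 8 reads. The groups did not overlap (log2 fold change -1.96, SE 0.44, adjusted p = 0.0856), while Itga4 itself was at -0.29 (SE 0.40).

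Among the beta chains, Itgb5, which pairs with Itgav to bind vitronectin, had 10.1, 10.2 and 11.3 CPM in EV, 13.1, 8.73 and 10.4 in LAP and 6.49, 3.70 and 5.27 in LIP. The LIP values were below all others, with a log2 fold change against EV of -1.03 (SE 0.24, adjusted p = 0.104). Itgb7, a chain of lymphocyte homing receptors, was also lower in each LIP library than in any EV or LAP library, with 1.14, 0.786 and 0.517 CPM in LIP (log2 fold change against EV -1.23, SE 0.37, adjusted p = 0.201). Itgb1 had 2006, 2247 and 1704 CPM in EV and 1998, 829 and 1671 CPM in LIP. LIP replicate 2 was far below the other libraries, and the groups overlapped (log2 fold change -0.41, SE 0.29). Itgb2, the leukocyte beta chain, was the member whose LIP values, 3.67, 3.47 and 3.84 CPM, lay above all EV values (log2 fold change 0.63, SE 0.31, adjusted p = 0.489).

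Of the 7 cadherins with a mean of 20 counts or more, 1 had every LIP library below every EV library. That is 14.3%, near the 11.1% of all genes of that depth. This was Cdh1, which was at 3.45, 3.69 and 2.64 CPM in EV and at 1.31, 0.786 and 2.46 CPM in LIP, without overlap (log2 fold change -1.10, SE 0.38, adjusted p = 0.293). Cdh2 had 512, 636 and 495 CPM in EV and 713, 357 and 698 CPM in LIP, and Cdh11 had 625, 612 and 549 CPM in EV and 550, 204 and 552 CPM in LIP. In both, LIP replicate 2 was the lowest library, and their log2 fold changes were 0.11 (SE 0.25) and -0.45 (SE 0.30). Cdh3, Cdh10 and Cdh26 had log2 fold changes between -0.30 and 0.37, and 3 of the 7 were below 0, beside 47.6% of all genes of that depth.

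Of the non-clustered protocadherins, Pcdh9, known as a neural adhesion gene, was at 34.9, 34.5 and 35.9 CPM in EV and at 26.3, 16.2 and 17.3 CPM in LIP. The EV libraries were nearly equal, and all LIP libraries lay below them (log2 fold change -0.82, SE 0.20, adjusted p = 0.109). Pcdh20 had 24.6, 25.5 and 16.3 CPM in EV but 23.5, 6.09 and 2.58 CPM in LIP, so that LIP replicate 1 stayed in the EV range (log2 fold change -1.05, SE 0.55). Pcdh18, the most abundant of them, had a log2 fold change of -0.60 (SE 0.22, adjusted p = 0.327). Pcdh11x was the member with an unadjusted p under 0.05 on the higher side, at 0.591, 0.332 and 0.762 CPM in EV and 0.653, 1.02 and 3.07 CPM in LIP, with overlap (log2 fold change 1.48, SE 0.54, adjusted p = 0.324).

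Promoter sequences were available from RefSeq on GRCm38.p6 for 40 of the 120 members, with 45 promoters. LAP and LIP bind the same DNA sites, so the 250 bases before each start were searched on both strands for the C/EBP palindrome TTGCGCAA and for the looser TTGCNNAA, which includes it. The palindrome was in 0 of the 45 promoters and in 0.164% of all 32851 promoters, and the looser letters were in 1, that of Cdh9, or 2.22%, beside 9.56% of all. The GC box letters GGGCGG, a motif added after the data were seen, were in 35.6% of the members' promoters and 32.7% of all. A match of letters is not a binding site, and no match says only that the letters are not in this window. Printed below, 5′ to 3′ in the direction of transcription, are the 250 bases before the starts of the members with the smallest adjusted p in LIP against EV that have an entry at their main start, with GGGCGG and its complement CCGCCC in capitals. The promoter of Itga11 is chr9:62677605-62677854 on the plus strand, that of Itgb5 chr16:33829415-33829664 on the plus strand and that of Pcdh9 chr14:93890680-93890929 on the minus strand.
Itga11: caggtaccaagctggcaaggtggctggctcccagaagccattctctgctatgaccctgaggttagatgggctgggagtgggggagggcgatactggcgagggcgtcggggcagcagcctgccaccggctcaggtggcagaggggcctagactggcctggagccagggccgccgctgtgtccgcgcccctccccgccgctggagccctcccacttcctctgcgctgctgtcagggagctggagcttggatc
Itgb5: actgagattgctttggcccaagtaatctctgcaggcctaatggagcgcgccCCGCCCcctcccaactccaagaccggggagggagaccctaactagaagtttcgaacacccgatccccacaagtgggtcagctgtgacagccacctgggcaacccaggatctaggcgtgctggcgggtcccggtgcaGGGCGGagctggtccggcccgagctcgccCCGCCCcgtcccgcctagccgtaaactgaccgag
Pcdh9: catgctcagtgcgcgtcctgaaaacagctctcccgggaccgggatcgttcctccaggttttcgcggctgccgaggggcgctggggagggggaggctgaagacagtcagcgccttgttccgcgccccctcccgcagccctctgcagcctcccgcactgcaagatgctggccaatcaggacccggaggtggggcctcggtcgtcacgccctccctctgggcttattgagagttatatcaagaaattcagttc
These sequences held 68.4%, 65.2% and 63.6% G and C, with 12, 18 and 18 CpG steps. The median of the 45 promoters of members was 58.0% and 10, and that of all promoters 52.4% and 6. The GC box letters occurred 3 times before Itgb5 and not before Itga11 or Pcdh9.

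In the Pcdhg cluster 11 of the 13 genes read as deeply as above had a log2 fold change below 0 in LIP against EV. Their share was 84.6%, beside 47.6% of all genes of that depth, and their median was -0.60. Pcdhga6 had 3.52, 2.92 and 1.79 CPM in EV and 1.31, 0.328 and 0.323 CPM in LIP (log2 fold change -2.10, SE 0.50, adjusted p = 0.106). Pcdhgb5 had 1.56, 1.03 and 0.879 CPM in EV and 0.572, 0.393 and 0.0645 CPM in LIP, the last from 2 reads (log2 fold change -1.78, SE 0.55, adjusted p = 0.227). Pcdhga1 had 5.23, 4.13 and 4.42 CPM in EV and 2.86, 1.67 and 1.65 CPM in LIP (log2 fold change -1.16, SE 0.29, adjusted p = 0.119). Pcdhga9 had a log2 fold change of -0.94 (SE 0.29, adjusted p = 0.2255). In all these genes the LIP libraries lay below the EV libraries. Pcdhga11 and Pcdhgc4 were the exceptions in sign, at 0.64 (SE 0.40) and 0.36 (SE 0.43). Pcdhgc3, with most of the reads, was at -0.31 (SE 0.24) and overlapped. In Pcdhb, 5 of 8 genes (62.5%) were below 0 and the range was -0.66 to 0.51. In 4 of the 8 every LIP library lay below every EV library, beside 11.1% of all genes of that depth. Pcdhb19 and Pcdhb21 were among these 4, at -0.66 (SE 0.29, adjusted p = 0.431) and -0.59 (SE 0.28, adjusted p = 0.462). Pcdhb16 was at 0.51 (SE 0.28, adjusted p = 0.553), with overlap.

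**Figure D3:**
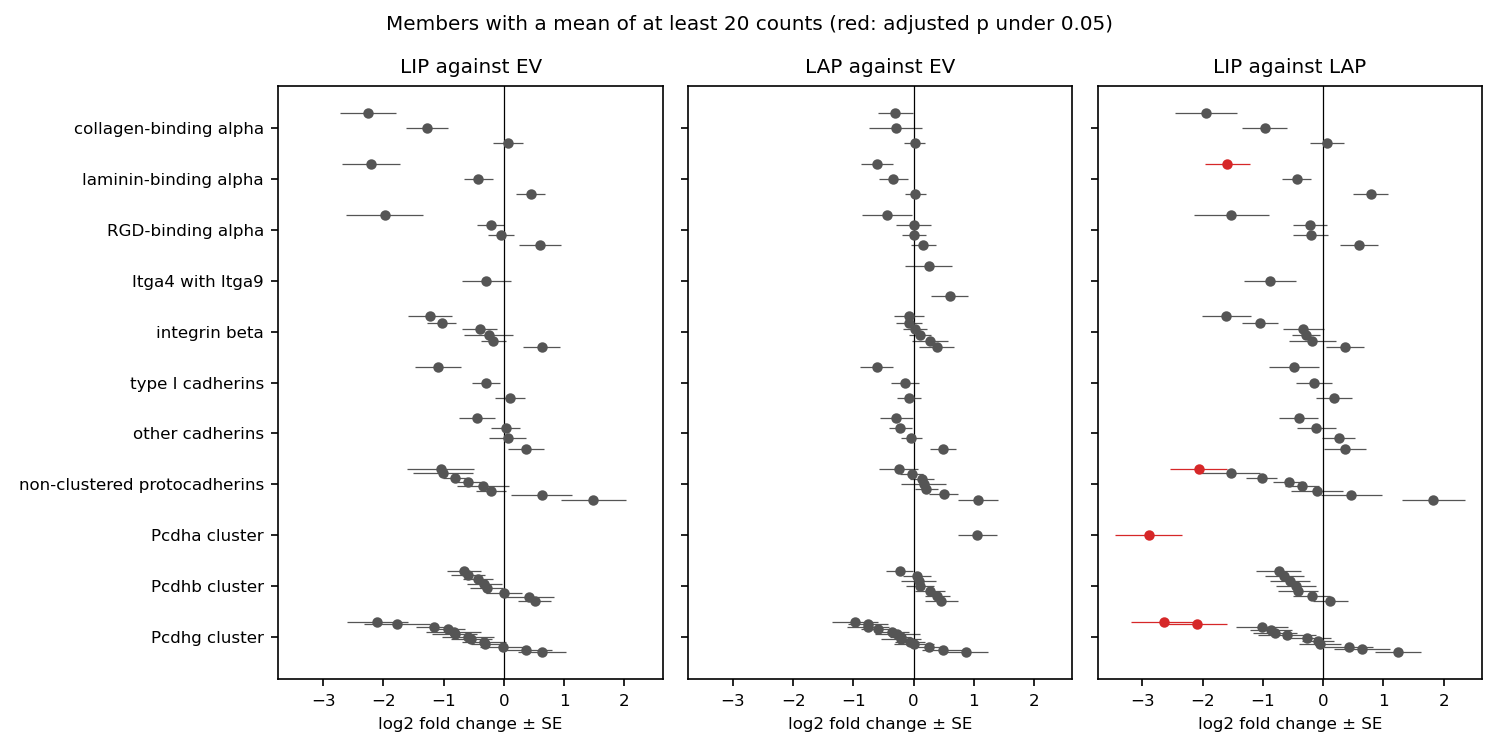
Log2 fold change (points) with its SE (bars) of each member with a mean of at least 20 counts over the 6 libraries of a comparison, by receptor class; red marks an adjusted p under 0.05. In LAP against EV the points of most classes lie on both sides of 0, and the red points, all in LIP against LAP, are left of 0. Itga9, which also passed in LIP against LAP, had a mean of 19.83 counts there and is not drawn in that panel.

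LAP against EV asked the same of the long isoform, which shares its EV libraries with the comparison above. No member passed the threshold in edgeR's quasi-likelihood test, DESeq2 or edgeR's exact test, where 0.0606%, 0.143% and 0.182% of all 18156 genes did. Unadjusted p-values under 0.05 were found for 5 lower and 4 higher members among the 53 read as deeply, beside 1.45% and 2.13% of all genes of that depth. The log2 fold change was below 0 in 25 of them (49.6% of all), and the median was 0.00. That split rests on LAP replicate 1, without which 38 were below 0 and the median was -0.15. Pcdh1, a protocadherin of epithelia, and Pcdhac2 were at 1.07 (SE 0.34) and 1.06 (SE 0.32), and Pcdhga12 was at -0.97 (SE 0.38), each with an adjusted p of 0.918. Pcdhga8, with a mean of 17.17 counts and so below that depth, had the smallest p of all members tested here. It was at -1.81 (SE 0.43, edgeR, unadjusted p = 0.00078, adjusted p = 0.374), without overlap. In LIP against EV it was at -1.88 (SE 0.55, adjusted p = 0.194) and in LIP against LAP at -0.05. Itga7, Itga11 and Itgb5 had log2 fold changes of -0.60 (SE 0.27), -0.30 (SE 0.44) and 0.02 (SE 0.20) in LAP against EV.

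LIP against LAP compared the isoforms directly. Here 6 members fell below the LAP level and 0 rose, while 0.837% of all 18166 genes fell, 0.209% rose and 1.05% changed in either direction. The 6 were Itga7, Itga9, Pcdh1, Pcdhac2, Pcdhga6 and Pcdhgb5, of which Itga9 had a mean of 19.83 counts, below the depth used next. Among the 52 members read as deeply, unadjusted p-values under 0.05 were found for 16 lower and 3 higher (7.55% and 3.98% of all genes of that depth), 12 and 3 did not overlap (7.88% and 6.93%), and 39 had a log2 fold change below 0 (49%), with a median of -0.38 beside 0.01. That median was -0.17 without LIP replicate 2, -0.21 without LAP replicate 1 and -0.57 without LIP replicate 1. Without LIP replicate 2, 4 members passed, of which Itga7, Pcdhac2 and Pcdhgb5 were lower and Pcdhga11 was higher, and 32 were below 0. That fit called 73 lower and 21 higher of all 17896 genes. With the low-count filter filterByExpr 0 members passed, when 0.0161% of 12419 genes did. Without LAP replicate 2 there were also 0, beside 6 lower and 1 higher of all 17990 genes. Without LAP replicate 1 there were 2 (Itga7 and Pcdhac2), beside 115 and 32 of 17954 genes. Without LIP replicate 3 there were 10, beside 310 and 138 of 17800 genes. Of the 6 fits that each left out 1 library, Pcdhac2 passed in 5, Itga7 in 4, Pcdh1, Pcdhga6 and Pcdhgb5 in 3 and Itga9 in 2.

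Pcdhac2, which the Pcdha cluster carries next to its constant exons, had the smallest p. It was read at 1.42, 1.55 and 0.925 CPM in LAP, at 0.367, 0.0983 and 0.0646 CPM in LIP, which stands for 9, 3 and 2 reads, and at 0.529, 0.554 and 0.762 CPM in EV. The 3 groups did not overlap, with EV between LIP and LAP. Between LIP and LAP its log2 fold change was -2.90 (SE 0.56, adjusted p = 0.0185). Pcdhgb5 had 3.36, 1.55 and 1.44 CPM in LAP and 0.572, 0.393 and 0.0645 CPM in LIP, without overlap (log2 fold change -2.64, SE 0.55, adjusted p = 0.0255). Pcdhga6 had 4.07, 2.44 and 1.74 CPM in LAP, above all of LIP (log2 fold change -2.09, SE 0.50, adjusted p = 0.0488). These 3 genes are first exons of clusters with shared exons, and their reads come from their own exons only.

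Pcdh1 was read at 4.16, 1.98 and 2.37 CPM in LAP, at 1.27, 0.491 and 0.291 CPM in LIP and at 1.77, 1.402 and 0.879 CPM in EV. All LAP values lay above all values of the other groups, and LIP overlapped with EV in 1 library (log2 fold change -2.07 between LIP and LAP, SE 0.48, adjusted p = 0.0417). Itga7, on chromosome 10 from 128933818 to 128958282 (GRCm38, plus strand), fell in LIP against LAP with a log2 fold change of -1.59 (SE 0.37, adjusted p = 0.0448). Itga9, on chromosome 9 from 118606690 to 118901003 (plus strand), had 1.79, 0.862 and 0.629 CPM in LAP, all above LIP (log2 fold change -2.20, SE 0.52, adjusted p = 0.0463). Itgb7 and Pcdh9 missed the threshold narrowly, with log2 fold changes of -1.61 (SE 0.40, adjusted p = 0.0605) and -1.02 (SE 0.26, adjusted p = 0.0608), and no LIP value reached a LAP value in either.

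**Figure D4:**
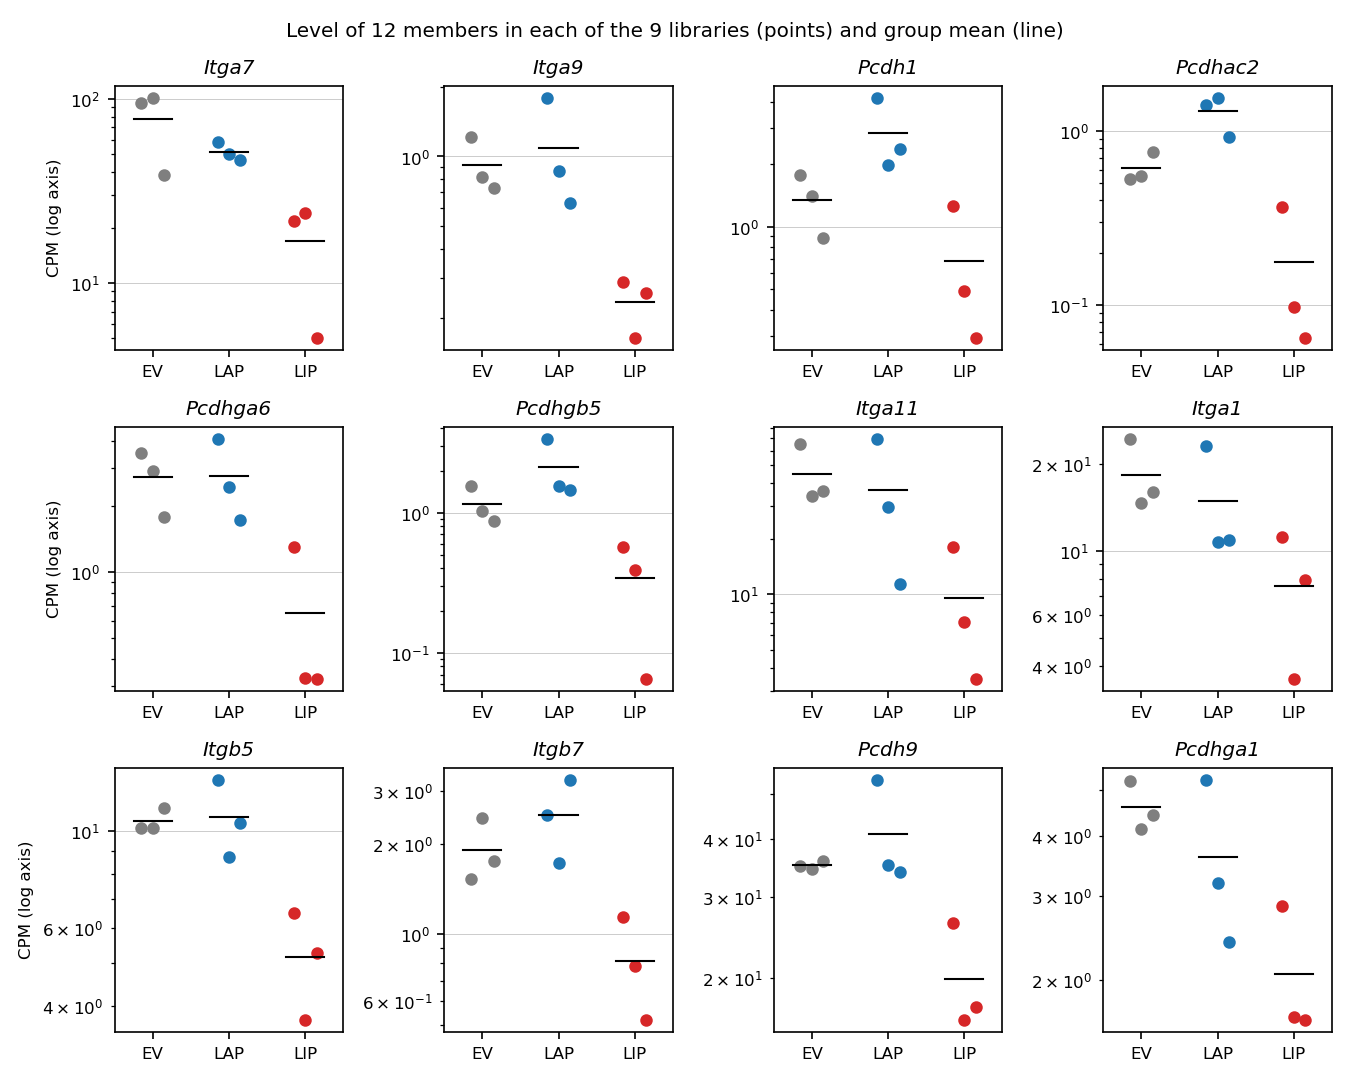
CPM (log axis) of 12 members in the 3 EV (grey), LAP (blue) and LIP (red) libraries, replicates 1 to 3 from left to right, with the group mean as a line. In Itga7, Itga9, Pcdhac2, Pcdhga6, Pcdhgb5, Itgb5, Itgb7 and Pcdh9 every LIP point lies below every other point, and the LIP points of Pcdh1 lie below all LAP points.

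The replicate numbers were taken to pair LAP and LIP libraries because deviations in these same counts correlated, and the labels do not state a pairing. With the number as a block, 15 members fell and 3 rose in LIP against LAP, beside 4.79% and 1.72% of all genes. The 6 members above were among them. Also lower in that fit were Itga1, Itga8, Itga11, Itgb5, Itgb7, Pcdh9, Pcdh18, Pcdh20 and Pcdhga9, with Itga11 at -1.90 (adjusted p = 4.57e-13) and Pcdh20 at -2.01 (adjusted p = 1.4e-11). Without the block, edgeR's quasi-likelihood test gave adjusted p = 0.086 for Itga11 and 0.2026 for Pcdh20, and LIP and LAP overlapped in both. The p-values of the block fit therefore depend on the assumed pairing. The 3 that rose were Itga3 at 0.80 (adjusted p = 0.000656), Pcdh11x at 1.61 (adjusted p = 0.00269) and Pcdhga11 at 1.08 (adjusted p = 0.00297). Itga3 was higher in every LIP library, at 495 CPM or more, than in any LAP library, with 478, 273 and 332 CPM. In each pair of the same number LIP exceeded LAP, also for Pcdhga11 with 5.18, 3.18 and 10.9 CPM in LIP and 3.11, 2.44 and 2.66 CPM in LAP.

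Partners of these receptors were followed as lists. Of 16 integrin ligands, 1 fell in LIP against EV, where 0.33% of all genes did. In LIP against LAP 3 fell, where 0.837% of all genes did, and 0 rose in either comparison. Postn, the matrix protein periostin, fell by 2.40 on the log2 scale against EV (SE 0.46, adjusted p = 0.0481) and by 2.06 against LAP (adjusted p = 0.0460), from means of 4.07 and 3.26 CPM to 0.788 CPM. The laminin chains Lama2 and Lama4 fell against LAP by 2.45 (adjusted p = 0.0189) and 2.66 (adjusted p = 0.0463), and had log2 fold changes of -1.51 and -2.32 against EV (adjusted p = 0.301 and 0.156). Their EV means were 5.81 and 19.7 CPM and their LIP means 2.07 and 3.99 CPM. The fibrillar collagens Col1a1 and Col1a2, ligands of Itga11 and Itga1 and at the same time fibroblast markers, had log2 fold changes of -0.83 and -1.09 against EV (adjusted p = 0.228 and 0.138), whereas Fn1, the fibronectin bound by Itga5, was at -0.28. Icam1, a ligand of the leukocyte integrins, was at 1.33 against EV and missed the threshold (adjusted p = 0.0536).

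Inside the cell, none of the 13 integrin activators and adaptors passed in any comparison, and in LIP against EV their median log2 fold change was -0.10 over the 12 with a mean of at least 20 counts. The lowest were Lims2, an adaptor bound to integrin-linked kinase, at -0.82 (SE 0.46, adjusted p = 0.569), Tln2, a talin, at -0.72 (adjusted p = 0.13) and Fermt2, a kindlin, at -0.39 (adjusted p = 0.545), and the others lay between -0.27 and 0.38. Among 7 catenins of the cadherin complex none passed, with a median of 0.05 over 5. Nor did any of 5 factors known to act on the protocadherin clusters, where Ctcf and Rad21, which form chromatin loops, and Smchd1, which silences protocadherin genes, were at -0.01, -0.05 and 0.05 and the median was 0.02 over 4.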

How the data were processed

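Total RNA of 9 libraries was made into TruSeq libraries, a kit that does not mark strand, and sequenced. According to the methods and the submitters' processing notes, the authors used bcl2fastq 1.8.3, aligned reads with TopHat 1.4.1 to mm10 and counted them per RefSeq gene with HTSeq 0.5.4. They deposited raw counts per gene symbol, without normalization, and no column was left unused (0). The strand setting is not given in the sources used here, so reads of overlapping antisense genes cannot be told apart, and reads in exons common to several genes are not counted. Total counts were 24839139 to 33522082 per library, and the floor of 3 counts covers counting error only, as no molecular identifiers were used.

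Groups were taken from the labels. Each comparison used its 6 libraries and all genes with at least 1 count in them, TMM normalization and edgeR 4.0.16 (R 4.3.3) with the quasi-likelihood test, without covariates, and Benjamini-Hochberg adjustment over all genes tested, with a threshold of 0.05. The SE is the log2 fold change over the square root of F. CPM use TMM factors over all 9 libraries (0.949 to 1.10). RPKM use exonic bases of GENCODE M21 (GRCm38, the build mm10) that no other gene covers, in place of the RefSeq exons first planned, which were not used here. Models were found for all members except Pcdha10 and Pcdha4-g. Promoters came from RefSeq. The tests were tried on simulated data without replicate pairing or outlying libraries, so that trial does not show how they behave on these libraries.

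The members, the lists and the rule for named genes were chosen with earlier results of these data known. Named were members past the threshold, the 3 members of each subgroup with the smallest p in LIP against EV and the 1 in each other comparison (mean of at least 20 counts), and the 3 of each family with the highest RPKM in EV. Members outside it, such as Itgal, Pcdhga8 and Pcdhgc4, were named after their values were seen.

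Alternatives were DESeq2 1.42.0, the exact test of edgeR, size factors as in DESeq2, scaling by totals alone, the filterByExpr filter, a joint fit of all 9 libraries, a block for the replicate number, and leaving out each library in turn. The labels number the libraries 1 to 3 in each group. Deviations from the group means correlated between same-numbered libraries with r of 0.577, 0.421 and 0.480 for LIP and LAP and 0.546, 0.223 and 0.517 for LAP and EV, so these numbers were taken to pair libraries. Between LIP and EV, r was 0.311, -0.119 and 0.243, and the numbers were not taken to pair these groups directly, although each was taken as paired with LAP. Plots were made in Python 3.11.15 with matplotlib 3.10.9.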

Additional observations from a re-analysis of the deposited data

Results flagged for a closer look

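The effects of the isoforms differed from each other, by the direct test of LIP against LAP with edgeR's quasi-likelihood test and Benjamini-Hochberg adjustment, in 6 members, all with lower levels under LIP. The log2 fold changes were -2.90 for Pcdhac2 (adjusted p = 0.0185), -2.64 for Pcdhgb5 (adjusted p = 0.0255), -2.07 for Pcdh1 (adjusted p = 0.0417), -1.59 for Itga7 (adjusted p = 0.0448), -2.20 for Itga9 (adjusted p = 0.0463) and -2.09 for Pcdhga6 (adjusted p = 0.0488). In each of them the 3 LIP libraries lay below the 3 LAP libraries. Against EV, the LIP values of Pcdhac2, Pcdhgb5 and Pcdh1 were at -1.85, -1.78 and -1.01 and the LAP values at 1.06, 0.87 and 1.07, none past the threshold. For Itga7, Itga9 and Pcdhga6 the LIP values were -2.21, -1.96 and -2.10 and the LAP values -0.60, 0.26 and 0.01. Levels of Pcdhac2 in LIP rest on 9, 3 and 2 reads. The test used here left out the replicate number, which was taken to pair LAP and LIP libraries. With that number as a block, 15 members were lower and 3 higher, beside 4.79% and 1.72% of all genes. Groups of 3 libraries are too small for the test of single outlying libraries.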

How the results depend on the processing

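With LIP against EV, the number of members past the threshold was 0 and became 6 with DESeq2, 7 with edgeR's exact test, 1 (Itga7) with all 9 libraries in a single model and 10 with the replicate number as a block, all lower, and 0 to 9 with each library left out in turn. Over all 18203 genes, the single model of 9 libraries called 71 lower and 17 higher, and the block 402 and 65. The number of members was 0 with DESeq2's size factors, total counts only and filterByExpr. With LIP against LAP, it was 6 and became 9 with DESeq2, 8 with the exact test, 2 with total counts only, 0 with filterByExpr, 6 with all 9 libraries and 18 with the replicate block (15 lower and 3 higher), and 0 to 10 with each library left out (lower 0 to 10, higher 0 to 1). Over all 18166 genes, DESeq2 called 198 lower and 57 higher, and the exact test 184 and 58. Total counts only called 85 and 28 of them, and all 9 libraries 154 and 43. filterByExpr left 12419 of 18166 genes and called 1 lower and 1 higher of them, and the cause of that drop was not tested. With LAP against EV, it was 0 under every alternative listed in the processing section, the block included. Members below 0 were 37 to 40 of 53 in LIP against EV and 32 to 39 of 52 in LIP against LAP over all alternatives, and in LAP against EV 25 to 31 of 53, or 18 to 38 with each library left out. Whether the number pairs LIP and EV libraries is not settled. Replicate 2 of LIP did not correlate best with replicate 2 of EV, while replicates 1 and 3 did so with their own numbers.

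Signs turned for named members that did not pass. With libraries left out, log2 fold changes of LIP against EV ranged from -0.20 to 0.31 for Cdh26, -0.049 to 0.36 for Cdh2, -0.23 to 0.27 for Itga10, -0.35 to 0.0052 for Itgav, -0.59 to 0.055 for Itga4 and -0.29 to 0.17 for Itga5. For Pcdhga6 in LAP against EV the value of 0.01 became -0.028 with total counts and -0.027 with the replicate block, and ranged from -0.40 to 0.24 with libraries left out, where Itga9 ranged from -0.32 to 0.52. Of the 858 values of named members under alternatives, 769 kept their direction and side of the threshold.

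At this depth, genes of the size of Pcdhac2 or Itga9 rest on fewer than 10 reads in LIP libraries, and 30 of 120 members could not be told from 0.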
